A study of Homo sapiens with 18 samples.

Results

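The effect of an hnRNPK expression construct on gene expression was compared between 2 stable backgrounds of HCT116, a human cell line from a colorectal carcinoma. The quantity measured for each gene was an interaction, the log2 fold change of Antisense_hnRNPK over Antisense_NC minus the log2 fold change of Ctrl_hnRNPK over Ctrl_NC. It is positive where the construct raised a transcript more, or lowered it less, in the Antisense cells than in the Ctrl cells. The comparison used 12 of the 18 RNA sequencing libraries of the series, 3 in each of 4 groups, and 15346 of the 31004 listed genes passed the count filter with all 12 libraries. The Ctrl cells carried the empty overexpression vector and the Antisense cells carried the same kind of vector with the antisense sequence of CRLM1, a long noncoding RNA whose gene is LINC01767. Each background received either the hnRNPK construct (hnRNPK) or its negative control (NC), and the NC and hnRNPK groups of a background shared its stable vector. The labels and the study's methods name different vector backbones for the hnRNPK construct. The groups hold 3 biological replicates per the series' design, and nothing says whether each came from a separate stable line, so the p-values measure the spread between these libraries.

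hnRNPK is an RNA- and DNA-binding protein that prefers stretches of cytosine and takes part in transcription, splicing, RNA stability and translation. In epithelial tumour cells it is known for joining signalling pathways to the handling of transcripts. Several of the genes below belong to the amino acid response, in which the transcription factor ATF4 switches on amino acid transporters, amino acid synthesis enzymes and tRNA synthetases, or to the heat shock response, in which HSF1 switches on cytosolic chaperones.

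Total counts ran from 19732681 to 27039520 per library. The targeted transcript, HNRNPK (ENSG00000165119.18, chr9:83968083-83980631, minus strand), read 481, 489 and 498 CPM in the Ctrl_NC libraries, 629 and 657 in Ctrl_hnRNPK replicates 1 and 2 and 500.4 in its replicate 3, 448, 443 and 435 in Antisense_NC, and 533, 518 and 581 in Antisense_hnRNPK. Replicates 1 and 2 of Ctrl_hnRNPK and the 3 Antisense_hnRNPK libraries lay above the NC libraries of their own background, and Ctrl_hnRNPK replicate 3 lay just above the highest Ctrl_NC library. Reads do not separate the construct from the endogenous gene, and its exons overlap those of HNRNPK-AS1. Ctrl_hnRNPK replicate 3 also correlated less with its own replicates (Pearson r of log2 CPM across genes 0.959 to 0.964) than with the Ctrl_NC libraries (0.984 to 0.986), whereas replicates 1 and 2 correlated at 0.989 with each other. The study left this library out, and it is therefore shown apart here, with values given with and without it. Without it the interaction of HNRNPK itself was -0.11 ± 0.10 (SE) with adjusted p = 0.576, from an effect of 0.31 ± 0.07 in Antisense and 0.42 ± 0.08 in Ctrl, and with all 12 libraries it was 0.03 (adjusted p = 0.956). LINC01767 (listed as RP4-710M16.2; ENSG00000223956.1, chr1:56414918-56417137, plus strand) was at 0 counts in all 6 Ctrl libraries, read 50.4 to 51.8 CPM in Antisense_NC and read 38.9 to 44.04 CPM in Antisense_hnRNPK. Whether the counting used strand is not stated, so sense and antisense reads at this locus cannot be told apart. All 6 epithelial markers of HCT116 passed the filter. Of 13 markers of other cell types, 12 were present in the counts and 2 of these passed.

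With all 12 libraries, edgeR's quasi-likelihood test called 0 of 15346 genes (0%) at an adjusted p of at most 0.05 and a fold change of at least 2 in either direction, and 0 at the adjusted p alone. The smallest adjusted p was 0.0652, and 2179 genes had an unadjusted p under 0.05. On the same 12 libraries DESeq2 called 125 genes and limma-voom with sample quality weights called 236, the latter giving Ctrl_hnRNPK replicate 3 a weight of 0.0611 against 0.442 to 2.55 in the others. Without Ctrl_hnRNPK replicate 3 the edgeR fit tested 15743 genes and called 158 (1.00%), of which 84 (0.534%) had a higher and 74 (0.470%) a lower effect in Antisense. At the adjusted p alone 1042 genes passed (6.62%), 449 higher (2.85%) and 593 lower (3.77%). Of the 158 genes 155 were tested with all 12 libraries, where their adjusted p ran from 0.0652 to 0.890 and their median absolute interaction was 1.20 instead of 1.27 on the log2 scale. The calls and component effects below are those of the 11 libraries. For the effect in Ctrl alone 8691 genes passed the adjusted p in the 11 libraries and 0 with all 12. Where 2 values stand after a gene in parentheses, the first is its interaction in the 11 libraries and the second that with all 12. For the called genes named below, the interaction with all 12 libraries had the same sign and an adjusted p from 0.0652 to 0.547. The libraries are bulk RNA, so fewer cells with a transcript and less of it per cell cannot be told apart.

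**Figure D1:**
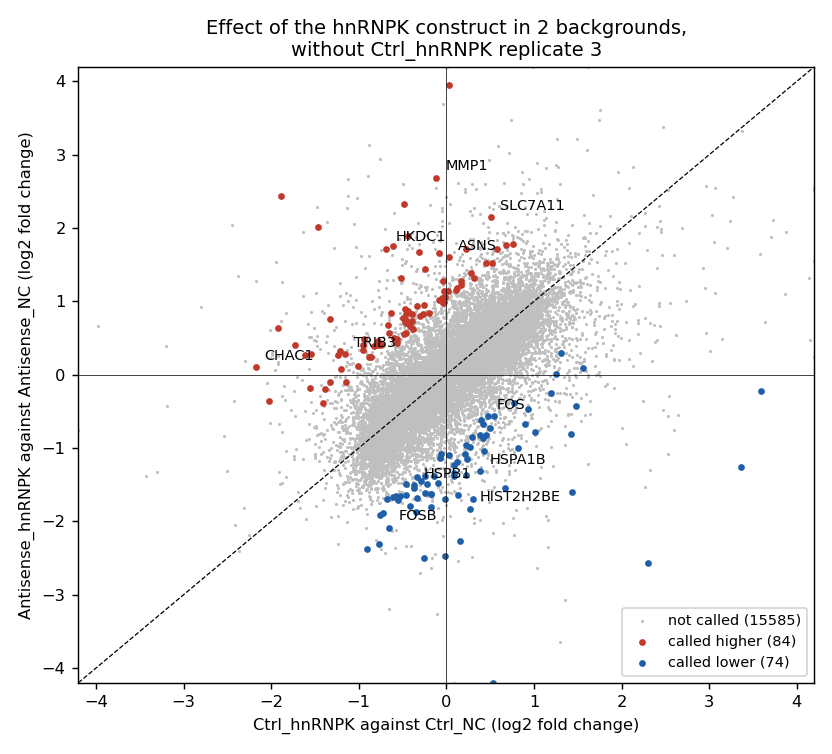
Each point is 1 of 15743 genes in the fit without Ctrl_hnRNPK replicate 3, with the log2 fold change by the hnRNPK construct in Ctrl cells on the horizontal axis and in Antisense cells on the vertical axis. Values beyond 4.2 were drawn at the edge, the dashed line marks equal effects, and the 84 genes called higher lie above it and the 74 called lower below it.

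The number of calls moved with single libraries. Leaving out 1 further library gave between 84 calls, without Ctrl_hnRNPK replicate 2, and 382, without Antisense_hnRNPK replicate 3. It was also changed by over 1.5 times without Antisense_NC replicate 1 (97 calls) and without Antisense_hnRNPK replicate 2 (102 calls), and without Ctrl_NC replicate 1 the genes called lower fell to 47. Of the 158 genes, 28 were called in each of the 11 fits, 11 higher and 17 lower, and 73 in at least 9 of them.

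**Figure D2:**
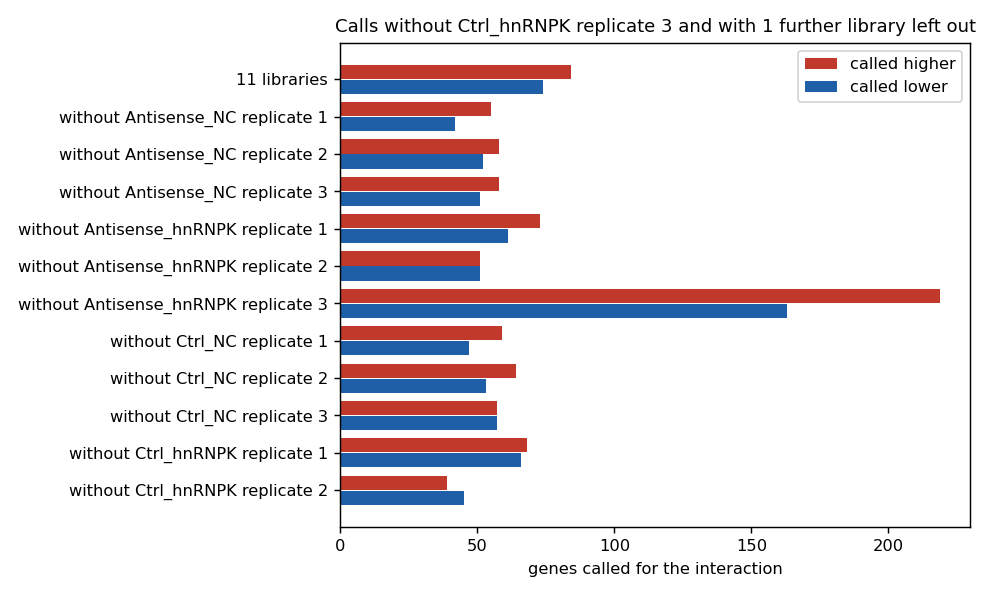
Bars give the number of genes called higher (red) and lower (blue) for the interaction on the horizontal axis, in the 11 libraries and after leaving out each of them in turn. The counts ran from 39 to 219 for higher and from 42 to 163 for lower, and both were greatest without Antisense_hnRNPK replicate 3.

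Genes were called for a large difference between the effects in the 2 backgrounds, which itself makes opposite signs more likely. The signs below therefore only describe the called genes, and the share of opposite signs over all genes was not counted. Among the 84 called higher the signs were opposite in 62, of which 20 passed the adjusted p in both backgrounds, and the median effect was 0.82 in Antisense and -0.47 in Ctrl on the log2 scale. The effect passed in Antisense alone for 41, in Ctrl alone for 19 and in both for 24. Among the 74 called lower the signs were opposite in 39, of which 7 passed in both, and the median effect was -1.38 in Antisense and 0.13 in Ctrl. Here 44 passed in Antisense alone, 10 in Ctrl alone and 20 in both. Without the construct, 45 of the 84 were higher in Antisense_NC than in Ctrl_NC at an adjusted p of at most 0.05 and 9 were lower. Of the 74 called lower, 33 were lower in Antisense_NC and 13 higher. Over all 15743 genes tested, 4570 were higher and 4058 lower in this comparison. With all 12 libraries, of the 83 called higher and still tested, 42 were higher and 7 lower in Antisense_NC. Of the 72 called lower and still tested, 29 were lower and 9 higher, against 3188 higher and 2813 lower over all 15346. These component effects share libraries with the interaction and are given as a description of its form. Over all 15743 genes the effects in the 2 backgrounds, which share no library, had a Pearson correlation of 0.657 and a Spearman correlation of 0.729 across genes, which are not independent replicates. Both effects also followed the GC content of genes, with Spearman correlations of -0.673 in Antisense and -0.721 in Ctrl. The part of this trend in the correlation between backgrounds was not tested. With all 12 libraries the signs were opposite in 60 of the 83 higher genes still tested and in 38 of the 72 lower ones. Their median effects were then 0.84 in Antisense and -0.28 in Ctrl for the higher genes and -1.35 and 0.07 for the lower ones, and the effect in Ctrl passed for 0 of them. The effects in the 2 backgrounds correlated at 0.646 (Pearson) and 0.716 (Spearman) across the 15346 genes.

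The promoters of 2 genes are printed with motifs known from their pathways. CHAC1, which degrades glutathione and is a textbook target of ATF4 and CHOP, and HSPA1B, an inducible chaperone driven by HSF1, are shown because they had the largest absolute interactions of their lists and have 1 annotated start each. The stretches are the 250 bases before the RefSeq start (GRCh38.p14, both on the plus strand), CHAC1 at chr15:40953221-40953470 and HSPA1B at chr6:31827488-31827737. Capitals mark a match, on either strand, to TGATGNAA, the core of the amino acid response element, in CHAC1, where it lies on the reverse strand, and to GAANNTTC, a facing pair of heat shock units that reads the same on both strands, in HSPA1B.
CHAC1: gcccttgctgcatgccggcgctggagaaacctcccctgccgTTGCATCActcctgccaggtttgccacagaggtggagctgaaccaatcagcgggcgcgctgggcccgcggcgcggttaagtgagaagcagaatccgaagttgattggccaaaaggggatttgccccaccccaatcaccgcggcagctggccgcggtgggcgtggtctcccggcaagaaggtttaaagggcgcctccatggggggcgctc
HSPA1B: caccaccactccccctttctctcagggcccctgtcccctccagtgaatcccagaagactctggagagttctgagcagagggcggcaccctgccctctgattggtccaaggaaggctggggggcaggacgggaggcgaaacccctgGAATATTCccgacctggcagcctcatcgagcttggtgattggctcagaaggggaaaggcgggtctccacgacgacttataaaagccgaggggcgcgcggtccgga
The match began 209 bases before the start in CHAC1 and 105 bases before it in HSPA1B. Both motifs were searched after the values were seen. TGATGNAA stood before at least 1 start in 1061 of 27305 genes (3.89%) and GAANNTTC in 1924 (7.05%), counting a gene with several starts once. Of the 33 amino acid response genes described below that passed the adjusted p, 28 had a promoter entry and 9 of these held TGATGNAA (AARS, ASNS, CEBPG, CHAC1, GARS, GOT1, IARS, JDP2 and SLC1A5), and no entry was matched for GPT2, PSPH, PYCR1, SLC7A11 and YARS. Of the 6 heat shock genes that passed, 4 held GAANNTTC (DNAJB1, HSP90AA1, HSPA1B and HSPB1). These lists hold genes of the pathways from which the motifs are known, and members that did not pass were not searched. The counts are therefore not read against the shares of all genes or as a result about the interaction.

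Most tested genes of the ATF4 response had more positive effects of the construct in Antisense than in Ctrl in the 11 libraries. Among the ATF4 and CHOP factors and their regulators, 4 of 16 tested members were called higher, against 0.534% of all genes tested, and 0 lower. At the adjusted p alone 10 passed, 10 higher and 0 lower, against 2.85% of all genes higher. The median interaction of the 16 was 0.51 in the 11 libraries and 0.44 with all 12, beside -0.04 for all genes tested in both fits. In the 11 libraries their median effect of the construct was 0.18 in Antisense and -0.37 in Ctrl. Their median log2 fold change of Antisense_NC over Ctrl_NC was 0.83. A negative interaction was estimated for 4 of the 16, among them ATF3 (-0.14, -0.21), PPP1R15A (-0.14, -0.12) and GDF15 (-0.03, -0.29). CHAC1 (ENSG00000128965.11, chr15:40952962-40956512, plus strand) read 1.601, 0.666 and 1.43 CPM in the Ctrl_NC libraries, 0.396 and 0.124 in Ctrl_hnRNPK replicates 1 and 2 and 0.924 in its replicate 3, 54.1, 50.8 and 57.5 in Antisense_NC, and 58.7, 60.0001 and 54.1 in Antisense_hnRNPK. The 3 Antisense_NC and 3 Antisense_hnRNPK libraries overlapped, Ctrl_hnRNPK replicates 1 and 2 lay below the Ctrl_NC libraries, and replicate 3 lay among them. The Ctrl_hnRNPK values rest on 9, 3 and 18 counts. The interaction was 2.28 ± 0.45 (SE) with adjusted p = 0.00548, and 1.497 (adjusted p = 0.212) with all 12. In the 11 libraries the effect was 0.10 ± 0.11 in Antisense (adjusted p = 0.449) and -2.18 ± 0.43 in Ctrl (adjusted p = 0.000219). For CHAC1 the call was lost without Ctrl_hnRNPK replicate 2 (1.68, adjusted p = 0.0699).

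TRIB3 (ENSG00000101255.10, chr20:362835-397559, plus strand), a pseudokinase that restrains ATF4 activity, also had lower values in Ctrl_hnRNPK replicates 1 and 2. It read 18.02, 15.4 and 11.7 CPM in Ctrl_NC, 7.27, 5.98 and, in the library shown apart, 18.9 in Ctrl_hnRNPK, 153, 164 and 166 in Antisense_NC, and 196, 236 and 152 in Antisense_hnRNPK. Replicates 1 and 2 of Ctrl_hnRNPK were below the Ctrl_NC libraries and replicate 3 was above them, while the Antisense groups overlapped. Its interaction was 1.44 ± 0.26 (SE) with adjusted p = 0.00696, and 0.80 (adjusted p = 0.408) with all 12. In the 11 libraries the effect was 0.29 ± 0.15 in Antisense (adjusted p = 0.106) and -1.15 ± 0.22 in Ctrl (adjusted p = 0.000414). For TRIB3 the call was lost without Ctrl_hnRNPK replicate 2 (1.32, adjusted p = 0.0531). The other called members were ATF5 and JDP2, both basic leucine zipper factors, and the exons of JDP2 overlap JDP2-AS1. ATF5, whose exons overlap IL4I1 and NUP62, read 4.404, 5.57 and 6.52 CPM in Ctrl_NC, 4.14, 4.13 and, in the library shown apart, 7.08 in Ctrl_hnRNPK, 10.2, 9.25 and 11.02 in Antisense_NC, and 14.5, 23.1 and 15.6 in Antisense_hnRNPK, with every Antisense_hnRNPK library above the Antisense_NC libraries. Its interaction was 1.22 ± 0.28 (SE) with adjusted p = 0.0117, and 0.95 (adjusted p = 0.229) with all 12. For ATF5 the call was lost without Antisense_hnRNPK replicate 2 (0.988, adjusted p = 0.00884) and without Ctrl_hnRNPK replicate 2 (1.24, adjusted p = 0.0506). JDP2 read 7.72, 9.82 and 8.09 CPM in Ctrl_NC, 3.79, 5.49 and, in the library shown apart, 8.06 in Ctrl_hnRNPK, 39.5, 36.7 and 41.9 in Antisense_NC, and 45.8, 45.9 and 46.6 in Antisense_hnRNPK. Its interaction was 1.10 ± 0.19 (SE) with adjusted p = 0.00205 and 0.83 (adjusted p = 0.213) with all 12. For JDP2 the call was lost without Ctrl_NC replicate 2 (0.98, adjusted p = 0.0109) and without Ctrl_hnRNPK replicate 1 (0.87, adjusted p = 0.0196). The members that passed the adjusted p below the fold limit were CEBPG (0.94, 1.04), SESN2 (0.86, 0.31), DDIT3 (0.65, 0.75), which encodes CHOP, STC2 (0.59, 0.54), XPOT (0.43, 0.66) and ATF4 itself (0.41, 0.34).

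Of 13 amino acid synthesis and one-carbon enzymes, 1 was called higher (0.534% of all genes) and 8 passed the adjusted p, all 8 higher (2.85% of all genes). The list median was 0.66 in the 11 libraries and 0.41 with all 12. In the 11 libraries the median effect of the construct on these enzymes was 0.30 in Antisense and -0.26 in Ctrl. Their median log2 fold change of Antisense_NC over Ctrl_NC was 0.63. ASNS (ENSG00000070669.16, chr7:97851677-97872542, minus strand), asparagine synthetase, read 42.7, 43.1 and 41.4 CPM in the Ctrl_NC libraries, 40.2 and 45.1 in Ctrl_hnRNPK replicates 1 and 2 and 33.7 in its replicate 3, 211, 212 and 213 in Antisense_NC, and 590.2, 825 and 491 in Antisense_hnRNPK. The construct raised it in Antisense, where the 3 Antisense_hnRNPK libraries lay above the 3 Antisense_NC libraries, by 1.60 ± 0.14 on the log2 scale (adjusted p = 7.56e-08). In Ctrl the groups overlapped, with a log2 fold change of 0.03 ± 0.16 (adjusted p = 0.885). The interaction was 1.57 ± 0.21 (SE) with adjusted p = 0.00141, and 1.70 (adjusted p = 0.0652) with all 12. For ASNS the call was kept in each of the 11 fits that left out 1 further library. The other 7 that passed were PHGDH (0.95, 0.70), PSAT1 (0.69, 0.86) and PSPH (0.66, 0.63), of serine synthesis, MTHFD2 (0.79, 0.99), of mitochondrial one-carbon metabolism, PYCR1 (0.73, 0.41), of proline synthesis, and the aminotransferases GPT2 (0.76, 0.60) and GOT1 (0.49, 0.38).

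Of 9 amino acid transporters, 2 were called higher (0.534% of all genes) and 7 passed the adjusted p, all 7 higher (2.85% of all genes). Transporters had a median of 0.85 in the 11 libraries and 0.71 with all 12. In the 11 libraries the median effect of the construct on them was 0.40 in Antisense and -0.58 in Ctrl. Their median log2 fold change of Antisense_NC over Ctrl_NC was 1.16. SLC7A11 (ENSG00000151012.13, chr4:138164097-138242349, minus strand), the cystine and glutamate exchanger, read 7.32, 8.28 and 6.34 CPM in Ctrl_NC, 11.1, 9.32 and, in the library shown apart, 6.72 in Ctrl_hnRNPK, 47.9, 50.6 and 43.1 in Antisense_NC, and 189, 266 and 167 in Antisense_hnRNPK. Every Antisense_hnRNPK library exceeded every Antisense_NC library, and Ctrl_hnRNPK replicates 1 and 2 exceeded the Ctrl_NC libraries while replicate 3 did not. The interaction was 1.65 ± 0.25 (SE) with adjusted p = 0.00240, from 2.15 ± 0.15 in Antisense and 0.50 ± 0.21 in Ctrl, and 1.84 (adjusted p = 0.0654) with all 12. For SLC7A11 the call was kept in each of the 11 fits that left out 1 further library, and its exons overlap SLC7A11-AS1. SLC6A9, a glycine transporter, read 3.203, 4.37 and 3.05 CPM in Ctrl_NC, 1.72, 1.898 and, in the library shown apart, 2.36 in Ctrl_hnRNPK, 10.4, 11.5 and 11.2 in Antisense_NC, and 13.1, 16.8 and 13.2 in Antisense_hnRNPK. Its 3 Ctrl_hnRNPK libraries were all below the Ctrl_NC libraries and its Antisense_hnRNPK libraries all above the Antisense_NC libraries. The interaction was 1.35 ± 0.27 (SE) with adjusted p = 0.00570, and 1.25 (adjusted p = 0.103) with all 12. For SLC6A9 the call was kept in each of the 11 fits that left out 1 further library, and its exons overlap CCDC24. SLC7A5 (0.92, 0.49), SLC3A2 (0.85, 0.71), SLC1A5 (0.78, 0.29), SLC7A1 (0.68, 0.43) and SLC38A1 (0.62, 0.90) passed the adjusted p below the fold limit.

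Of 20 cytosolic aminoacyl-tRNA synthetases, which load amino acids onto their tRNAs, 3 were called higher (0.534% of all genes) and 8 passed the adjusted p, all 8 higher (2.85% of all genes). Synthetases had a median of 0.32 in the 11 libraries and 0.48 with all 12. In the 11 libraries the median effect of the construct on them was 0.70 in Antisense and -0.04 in Ctrl. Their median log2 fold change of Antisense_NC over Ctrl_NC was 0.73. SARS (ENSG00000031698.12, chr1:109213918-109238182, plus strand), the seryl-tRNA synthetase, read 81.95, 92.9 and 91.7 CPM in the Ctrl_NC libraries, 73.8 and 71.9 in Ctrl_hnRNPK replicates 1 and 2 and 88.03 in its replicate 3, 225, 225 and 225 in Antisense_NC, and 391, 452 and 339 in Antisense_hnRNPK. The Antisense groups did not overlap, and in Ctrl replicates 1 and 2 with the construct lay below the NC libraries and replicate 3 among them. Its interaction was 1.08 ± 0.14 (SE) with adjusted p = 0.000280, and 1.02 (adjusted p = 0.1001) with all 12. For SARS the call was lost without Antisense_hnRNPK replicate 2 (0.98, adjusted p = 1.47e-06). WARS, the tryptophanyl-tRNA synthetase, had an interaction of 1.07 ± 0.15 (SE) and MARS, the methionyl-tRNA synthetase, whose exons overlap DDIT3 and ARHGAP9, of 1.01 ± 0.15 (SE), with adjusted p of 0.000756 and 0.00109. With all 12 the values were 0.98 (adjusted p = 0.103) for WARS and 0.95 (adjusted p = 0.103) for MARS. The exons of WARS overlap WDR25. For WARS the call was lost without Antisense_hnRNPK replicate 2 (0.92, adjusted p = 3.56e-06), and for MARS the call was lost without Antisense_hnRNPK replicate 2 (0.85, adjusted p = 6.82e-06) and without Ctrl_hnRNPK replicate 1 (0.95, adjusted p = 0.00874). AARS (0.99, 0.68), CARS (0.96, 0.98), YARS (0.51, 0.41), IARS (0.50, 0.74) and GARS (0.36, 0.40) also passed the adjusted p. In the 11 libraries the interaction was negative for 2 of the 13 enzymes, 1 of the 9 transporters and 3 of the 20 synthetases. The medians of these 4 lists were positive in each of the 21 alternative fits of the 11 libraries and, with all 12 libraries, in each of 23, although with all 12 no member of them passed the adjusted p in edgeR's test as described.

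**Figure D3:**
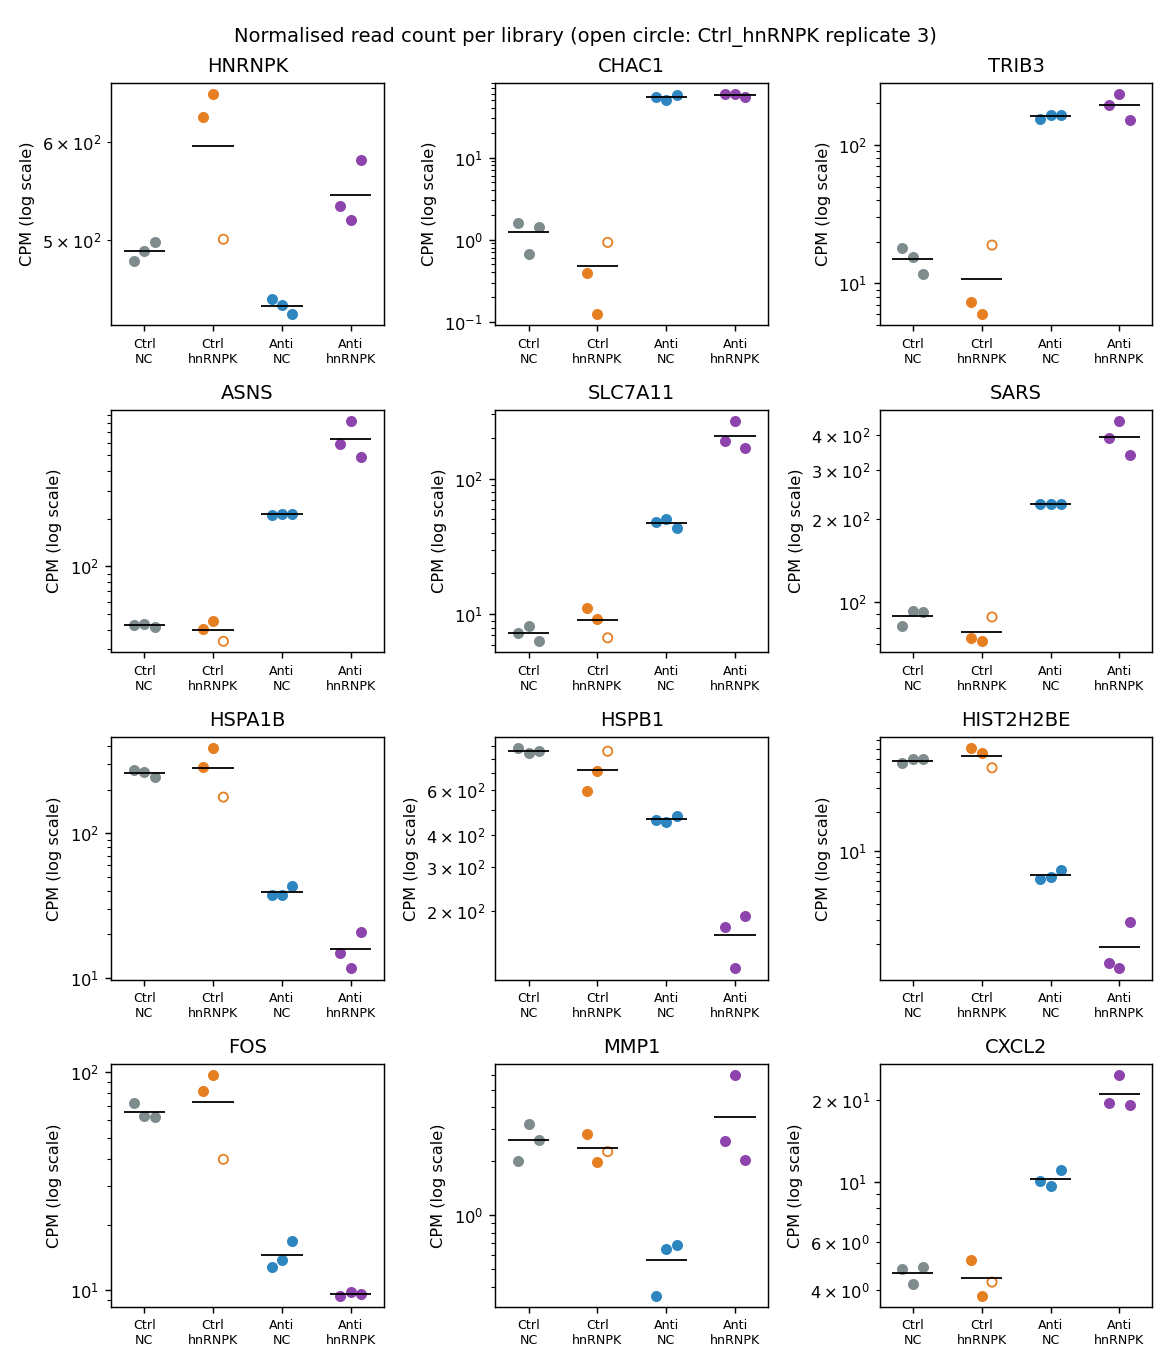
Normalised read count (CPM, log scale on the vertical axis) of 12 genes in each of the 12 libraries, with the bar at the group mean of 3 and an open circle for Ctrl_hnRNPK replicate 3. ASNS, SLC7A11 and SARS rose from Antisense_NC to Antisense_hnRNPK without overlap, HSPA1B, HSPB1 and HIST2H2BE fell without overlap, and for HNRNPK, CHAC1, SLC7A11, SARS and HSPB1 the open circle lay within or next to the Ctrl_NC points.

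Of 16 cytosolic heat shock proteins tested, 2 were called lower (0.470% of all genes) and 6 passed the adjusted p, all 6 lower (3.77% of all genes). The list median was -0.52 in the 11 libraries and -0.30 with all 12, so that 1 library moved it by over 1.5 times. HSPA1B (ENSG00000204388.6, chr6:31827738-31830254, plus strand) read 275, 265 and 244 CPM in the Ctrl_NC libraries, 286 and 388 in Ctrl_hnRNPK replicates 1 and 2 and 178 in its replicate 3, 37.5, 37.2 and 43.1 in Antisense_NC, and 14.99, 11.6 and 20.7 in Antisense_hnRNPK. It fell in Antisense without overlap, with a log2 fold change of -1.31 ± 0.17 (adjusted p = 7.94e-06), whereas Ctrl_hnRNPK replicates 1 and 2 were above and replicate 3 below the Ctrl_NC libraries, with a log2 fold change of 0.39 ± 0.16 (adjusted p = 0.0560). The interaction was -1.70 ± 0.23 (SE) with adjusted p = 0.00162, and -1.42 (adjusted p = 0.123) with all 12. For HSPA1B the call was kept in each of the 11 fits that left out 1 further library. HSPA1A is a near-identical copy, and because uniquely mapped reads were counted the level of HSPA1B is uncertain.

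HSPB1 (ENSG00000106211.8, chr7:76302673-76304295, plus strand), a small heat shock protein, read 880.2, 842 and 856 CPM in Ctrl_NC, 594, 718 and, in the library shown apart, 855 in Ctrl_hnRNPK, 457, 450.1 and 475 in Antisense_NC, and 173, 119 and 191 in Antisense_hnRNPK. It fell in both backgrounds, with log2 fold changes of -1.51 ± 0.12 in Antisense and -0.37 ± 0.13 in Ctrl, and the Antisense groups did not overlap. The interaction was -1.14 ± 0.17 (SE) with adjusted p = 0.00141, and -1.25 (adjusted p = 0.0932) with all 12. For HSPB1 the call was lost without Antisense_hnRNPK replicate 2 (-0.95, adjusted p = 1.47e-06) and without Ctrl_hnRNPK replicate 2 (-0.98, adjusted p = 0.0127). HSPH1 (-0.90, -0.52), DNAJB1 (-0.79, -0.60), HSP90AA1 (-0.70, -0.35) and BAG3 (-0.53, -0.77), chaperones and co-chaperones of the same response, passed the adjusted p below the fold limit. The heat shock median ran from -0.62 to -0.35 over the 21 alternative fits of the 11 libraries, the latter without Ctrl_hnRNPK replicate 2, and from -0.62 to -0.06 over the 23 of all 12, the latter also without Ctrl_hnRNPK replicate 2.

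**Figure D4:**
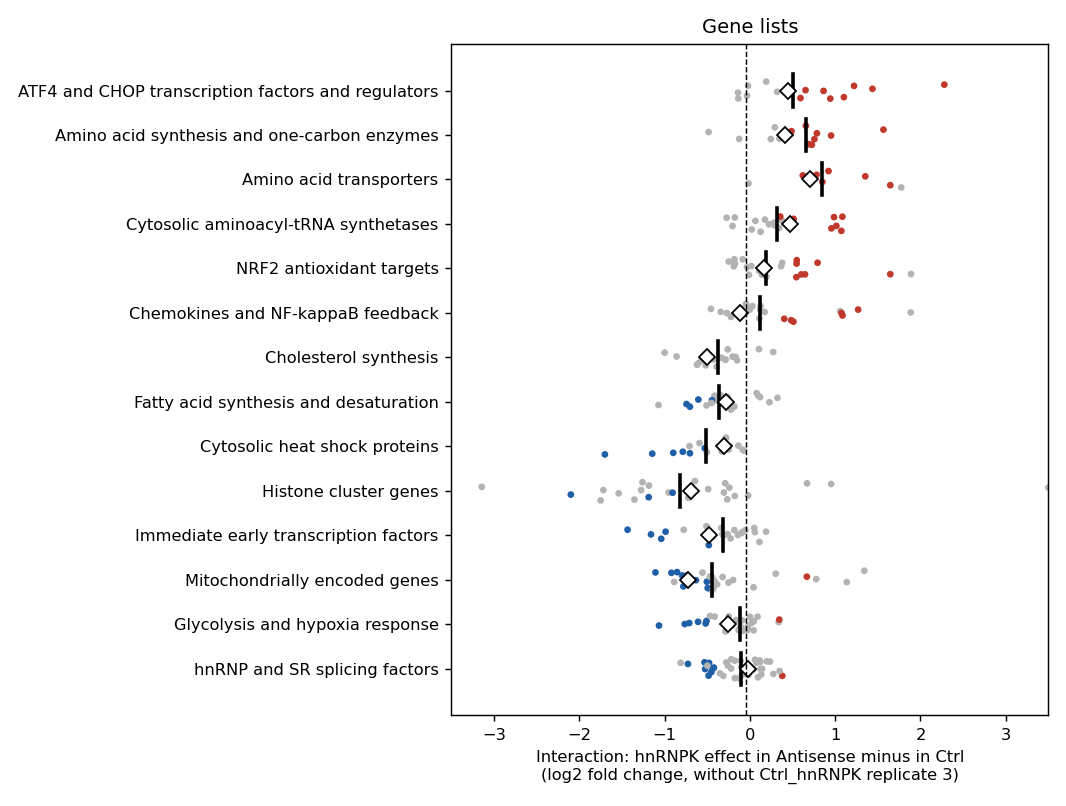
Interaction log2 fold change (horizontal axis) of the members of 14 gene lists in the fit without Ctrl_hnRNPK replicate 3, red and blue where the adjusted p was at most 0.05 and grey otherwise, with a black bar at each list median an open diamond at the list median with all 12 libraries, and a dashed line at the median of all genes tested (-0.04). Values beyond 3.5 are drawn at the edge. The medians of the 4 amino acid response lists ran from 0.32 to 0.85 in the 11 libraries and from 0.41 to 0.71 with all 12, and those of heat shock genes were -0.52 and -0.30.

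Of 54 listed histone genes, 24 passed the filter in the 11 libraries. Of these 24, 2 were called lower (0.470% of all genes) and 3 passed the adjusted p, all 3 lower (3.77% of all genes), while 3 had a positive interaction. Their median log2 fold change of Antisense_NC over Ctrl_NC was -1.62. Members could therefore pass the filter through the Ctrl libraries, so the count of signs is not read as a result. The list median of the interaction was -0.81 in the 11 libraries and -0.69 with all 12, and over the alternatives it ran from -1.03 to -0.66 in the 11 libraries and from -0.96 to -0.53 with all 12. HIST2H2BE (ENSG00000184678.9, chr1:149884459-149886682, minus strand), an H2B histone now named H2BC21, read 46.4, 50.2 and 49.7 CPM in the Ctrl_NC libraries, 60.6 and 55.3 in Ctrl_hnRNPK replicates 1 and 2 and 42.96 in its replicate 3, 6.199, 6.41 and 7.24 in Antisense_NC, and 1.42, 1.295 and 2.91 in Antisense_hnRNPK. The 3 Antisense_hnRNPK libraries lay below the 3 Antisense_NC libraries, replicates 1 and 2 of Ctrl_hnRNPK lay above the Ctrl_NC libraries, and replicate 3 lay below them. The interaction was -2.10 ± 0.24 (SE) with adjusted p = 0.000164, the smallest adjusted p of the 11-library fit, and -1.94 (adjusted p = 0.0654) with all 12. For HIST2H2BE the call was kept in each of the 11 fits that left out 1 further library. HIST3H2A read 41.5, 48.96 and 35.7 CPM in Ctrl_NC, 44.5, 52.1 and, in the library shown apart, 41.1 in Ctrl_hnRNPK, 16.01, 14.9 and 17.004 in Antisense_NC, and 8.94, 6.13 and 9.47 in Antisense_hnRNPK, with an interaction of -1.19 ± 0.20 (SE) and adjusted p = 0.00201, and -1.08 (adjusted p = 0.103) with all 12. For HIST3H2A the call was lost without Antisense_hnRNPK replicate 2 (-0.997, adjusted p = 0.000648). HIST1H1C (-0.91, -0.81) also passed. Histone genes are a family of similar sequences, and how reads shared by copies were assigned makes their counts uncertain.

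Of 24 immediate early transcription factors, which respond first to growth signals, 3 were called lower (0.470% of all genes) and 5 passed the adjusted p, all 5 lower (3.77% of all genes), while 4 had a positive interaction. The median of the 24 was -0.32 in the 11 libraries and -0.48 with all 12, and without Ctrl_hnRNPK replicate 1 the median of the 11-library fit moved to -0.09. FOS (ENSG00000170345.9, chr14:75278826-75282230, plus strand) read 71.9, 62.7 and 61.98 CPM in the Ctrl_NC libraries, 81.8 and 96.5 in Ctrl_hnRNPK replicates 1 and 2 and 39.8 in its replicate 3, 12.8, 13.7 and 16.9 in Antisense_NC, and 9.46, 9.83 and 9.62 in Antisense_hnRNPK. It fell in Antisense, with a log2 fold change of -0.57 ± 0.11 (adjusted p = 0.000178), and rose in Ctrl, with 0.47 ± 0.11 (adjusted p = 0.000744), once replicate 3, which lay below the Ctrl_NC libraries, was left out. The interaction was -1.04 ± 0.16 (SE) with adjusted p = 0.00101, and -0.72 (adjusted p = 0.346) with all 12. For FOS the call was lost in 3 of the 11 fits that left out 1 further library, where the fold change came under 2 at an adjusted p of up to 0.00875. NR4A1, an orphan nuclear receptor, read 182, 190.5 and 182 CPM in Ctrl_NC, 122, 97.3 and, in the library shown apart, 206 in Ctrl_hnRNPK, 140.3, 136 and 134 in Antisense_NC, and 40.3, 23.9 and 46.6 in Antisense_hnRNPK. It fell in both backgrounds in the 11 libraries, with an interaction of -1.16 ± 0.25 (SE) and adjusted p = 0.0187, and -1.49 (adjusted p = 0.103) with all 12. For NR4A1 the call was lost without Antisense_hnRNPK replicate 2 (-0.91, adjusted p = 2.17e-05) and without Ctrl_hnRNPK replicate 1 (-0.98, adjusted p = 0.0868). The exons of NR4A1 overlap NR4A1AS. FOSB had an interaction of -1.43 ± 0.33 (SE) with adjusted p = 0.0271, and -1.53 (adjusted p = 0.103) with all 12. For FOSB the call was lost in 8 of the 11 fits that left out 1 further library, with adjusted p up to 0.110. NR4A2 (-0.99, -0.95) and JUND (-0.48, -0.86) passed the adjusted p below the fold limit.

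**Figure D5:**
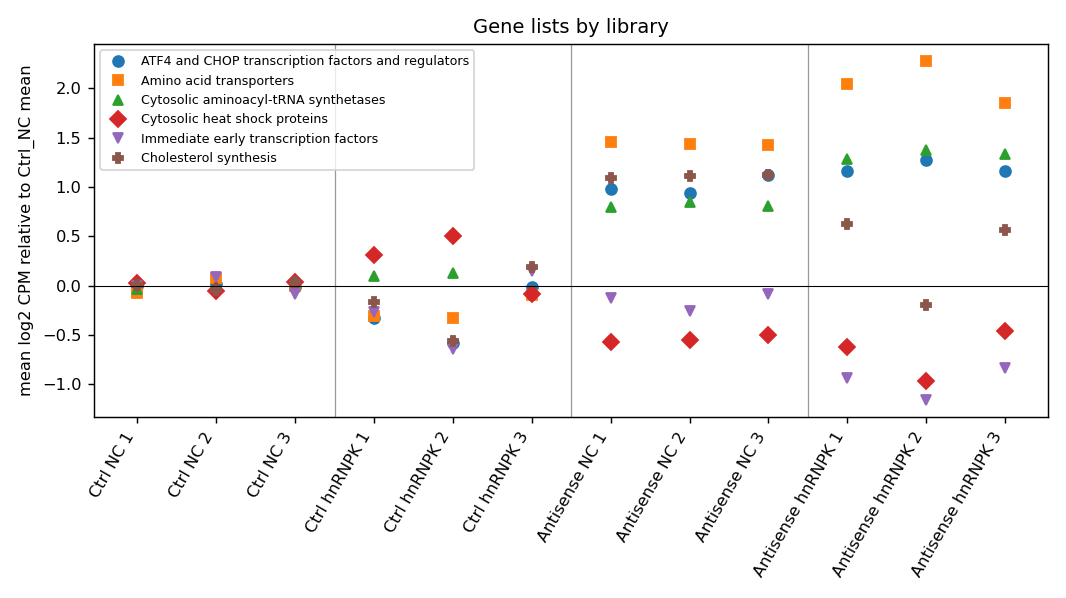
Mean over list members of log2 CPM relative to the Ctrl_NC mean (vertical axis) in each of the 12 libraries (horizontal axis), for 6 gene lists. Amino acid transporters stood at 1.43 to 1.45 in Antisense_NC and 1.85 to 2.28 in Antisense_hnRNPK, and immediate early factors stood at -0.25 to -0.09 and at -1.16 to -0.84; Ctrl_hnRNPK replicate 3 lay closer to 0 than replicates 1 and 2 for these 2 lists.

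Chemokines and feedback genes of NF-kappaB held 3 genes called higher (0.534% of all genes) and 0 called lower of 20 tested, and 6 that passed the adjusted p, all 6 higher (2.85% of all genes). Their median was 0.12, but with all 12 libraries it was -0.12, so no direction is given for the list. CXCL2 (ENSG00000081041.8, chr4:74097040-74099196, minus strand), a neutrophil chemokine, read 4.75, 4.201 and 4.86 CPM in Ctrl_NC, 5.15, 3.796 and, in the library shown apart, 4.26 in Ctrl_hnRNPK, 10.1, 9.596 and 11.02 in Antisense_NC, and 19.4, 24.6 and 19.1 in Antisense_hnRNPK. The Antisense groups did not overlap and the Ctrl groups did. Its interaction was 1.07 ± 0.23 (SE) with adjusted p = 0.00932, and 1.12 (adjusted p = 0.103) with all 12. For CXCL2 the call was lost without Antisense_hnRNPK replicate 2 (0.95, adjusted p = 0.00830) and without Ctrl_hnRNPK replicate 2 (0.89, adjusted p = 0.0599). CXCL3 (1.27 ± 0.25 (SE), adjusted p = 0.00582) and CCL20 (1.09 ± 0.31 (SE), adjusted p = 0.0392) were called as well, and with all 12 the values were 0.92 (adjusted p = 0.249) for CXCL3 and 1.13 (adjusted p = 0.175) for CCL20. For CXCL3 the call was lost without Ctrl_hnRNPK replicate 2 (0.92, adjusted p = 0.0437), and for CCL20 the call was lost in 9 of the 11 fits that left out 1 further library, with adjusted p up to 0.184. CXCL1 (0.48, 0.47), CXCL8 (0.40, 0.65) and RELB (0.51, -0.12) passed the adjusted p below the fold limit.

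Single members of other lists were called. MMP1 (ENSG00000196611.4, chr11:102789401-102798160, minus strand), the interstitial collagenase, read 2.002, 3.203 and 2.64 CPM in the Ctrl_NC libraries, 2.82 and 1.98 in Ctrl_hnRNPK replicates 1 and 2 and 2.26 in its replicate 3, 0.357, 0.645 and 0.682 in Antisense_NC, and 2.58, 6.003 and 2.02 in Antisense_hnRNPK. It rose in Antisense without overlap, with a log2 fold change of 2.69 ± 0.41. Its Antisense_NC values rest on 8, 15 and 13 counts. Antisense_hnRNPK replicates 1 and 3 lay within the range of the Ctrl libraries and replicate 2 above it, and the Ctrl groups overlapped. Of the called genes that averaged 1 CPM or more it had the highest interaction, 2.80 ± 0.57 (SE) with adjusted p = 0.00743, and 2.85 (adjusted p = 0.1001) with all 12. For MMP1 the call was kept in each of the 11 fits that left out 1 further library. Its exons overlap WTAPP1. ID3 (ENSG00000117318.8, chr1:23557926-23559501, minus strand), an inhibitor of basic helix-loop-helix factors induced by BMP signals, read 148, 149.8 and 141 CPM in Ctrl_NC, 123, 119 and, in the library shown apart, 165 in Ctrl_hnRNPK, 118, 115 and 124 in Antisense_NC, and 50.4, 30.7 and 55.03 in Antisense_hnRNPK. It fell in Antisense without overlap, with an interaction of -1.13 ± 0.21 (SE) and adjusted p = 0.00590, and -1.26 (adjusted p = 0.1001) with all 12. For ID3 the call was lost without Antisense_hnRNPK replicate 2 (-0.90, adjusted p = 2.92e-06). ADM, the vasodilator peptide adrenomedullin, had an interaction of -1.06 ± 0.26 (SE) with adjusted p = 0.0287, and -1.12 (adjusted p = 0.123) with all 12. For ADM the call was lost in 10 of the 11 fits that left out 1 further library, with adjusted p up to 0.105.

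Among transcripts of the mitochondrial genome, 1 of 27 tested was called lower (0.470% of all genes), and 9 passed the adjusted p lower (3.77%) and 1 higher (2.85%). Mitochondrial transcripts had a median of -0.44 in the 11 libraries and -0.72 with all 12, so that 1 library moved it by over 1.5 times, and with the GC and length trend removed it was -0.12 in the 11 libraries. MT-RNR1 (ENSG00000211459.2, chrM:648-1601, plus strand), the small ribosomal RNA of mitochondria, read 2347, 2371 and 2379 CPM in Ctrl_NC, 3422, 3361 and, in the library shown apart, 2369 in Ctrl_hnRNPK, 3543, 3529 and 3496 in Antisense_NC, and 2377, 1811 and 2922 in Antisense_hnRNPK. It fell in Antisense, with a log2 fold change of -0.56 ± 0.11, and rose in Ctrl, with 0.54 ± 0.12, and Ctrl_hnRNPK replicate 3 read within the range of Ctrl_NC. The interaction was -1.11 ± 0.16 (SE) with adjusted p = 0.000847, and -0.93 (adjusted p = 0.138) with all 12. For MT-RNR1 the call was lost without Antisense_hnRNPK replicate 2 (-0.93, adjusted p = 1.04e-06). MT-ND4 (-0.85, -0.95), MT-ND5 (-0.79, -1.04), MT-ND4L (-0.78, -0.90), MT-RNR2 (-0.74, -0.49), MT-CO1 (-0.63, -0.72), MT-CO2 (-0.49, -0.55), MT-CO3 (-0.50, -0.56) and MT-TL1 (-0.92, -1.19) passed lower and MT-ND3 (0.67, 0.28) higher. Mitochondrial genes took 4.06% to 4.24% of counts in Ctrl_NC, 5.52% and 5.36% in Ctrl_hnRNPK replicates 1 and 2 and 3.88% in replicate 3, 6.64% to 7.17% in Antisense_NC and 5.13% to 7.001% in Antisense_hnRNPK, and the part of this share in the other results was not tested.

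Protein-coding genes outside the lists completed the 10 highest interactions. HKDC1 (ENSG00000156510.12, chr10:69220332-69267552, plus strand), a hexokinase, read 1.49, 1.71 and 1.71 CPM in the Ctrl_NC libraries, 0.969 and 1.03 in Ctrl_hnRNPK replicates 1 and 2 and 1.69 in its replicate 3, 2.498, 1.76 and 1.84 in Antisense_NC, and 5.496, 9.51 and 4.81 in Antisense_hnRNPK. It rose in Antisense without overlap, with a log2 fold change of 1.72 ± 0.25, and Ctrl_hnRNPK replicates 1 and 2 lay below the Ctrl_NC libraries with replicate 3 among them. Its interaction was 2.41 ± 0.43 (SE) with adjusted p = 0.00261, and 2.15 (adjusted p = 0.1001) with all 12. For HKDC1 the call was kept in each of the 11 fits that left out 1 further library. DHRS2, a short-chain dehydrogenase, had 2.37 ± 0.48 (SE) with adjusted p = 0.00937, and KCNG1, a potassium channel subunit, had 1.84 ± 0.41 (SE) with adjusted p = 0.0224. With all 12 these were 2.22 (adjusted p = 0.103) and 1.55 (adjusted p = 0.134). For DHRS2 the call was lost without Ctrl_hnRNPK replicate 1 (2.31, adjusted p = 0.0514), and for KCNG1 the call was lost in 5 of the 11 fits that left out 1 further library, with adjusted p up to 0.0979. HPS6, a subunit of a complex for lysosome-related organelles, had 2.56 ± 0.64 (SE) with adjusted p = 0.0232, resting on 4 and 7 counts in Ctrl_hnRNPK replicates 1 and 2 against 29 in replicate 3, and 1.21 (adjusted p = 0.424) with all 12. For HPS6 the call was lost in 4 of the 11 fits that left out 1 further library, with adjusted p up to 0.129. EPM2A, the glycogen phosphatase laforin, had 1.98 ± 0.46 (SE) with adjusted p = 0.0130, LOXL3, a lysyl oxidase whose exons overlap HTRA2 and DOK1, had 2.09 ± 0.49 (SE) with adjusted p = 0.0147, and BHLHA15, a factor of secretory cells, had 1.88 ± 0.49 (SE) with adjusted p = 0.0261. With all 12 the values were 2.11 (adjusted p = 0.103) for EPM2A, 1.20 (adjusted p = 0.380) for LOXL3 and 0.86 (adjusted p = 0.547) for BHLHA15. In Ctrl_hnRNPK replicates 1 to 3 LOXL3 held 8, 14 and 35 counts and BHLHA15 7, 9 and 30. The exons of BHLHA15 overlap TECPR1, and those of HKDC1, KCNG1 and EPM2A overlap genes without a name. For EPM2A the call was lost without Ctrl_hnRNPK replicate 2 (1.58, adjusted p = 0.0748), for LOXL3 the call was lost without Ctrl_hnRNPK replicate 1 (1.78, adjusted p = 0.0812), and for BHLHA15 the call was lost in 6 of the 11 fits that left out 1 further library, with adjusted p up to 0.103. PARS2, the mitochondrial prolyl-tRNA synthetase, had 2.13 ± 0.61 (SE) with adjusted p = 0.0412, resting on 3, 3 and 12 counts in Ctrl_hnRNPK replicates 1 to 3, and 1.08 (adjusted p = 0.435) with all 12. For PARS2 the call was lost in 10 of the 11 fits that left out 1 further library, with adjusted p up to 0.139.

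Noncoding transcripts and a pseudogene made up most of the 10 lowest interactions. RP11-84A19.4 (ENSG00000269967.1, chr1:31851913-31921841, minus strand), a long intergenic noncoding RNA, read 1.89, 1.66 and 1.99 CPM in Ctrl_NC, 4.095, 5.65 and, in the library shown apart, 0.873 in Ctrl_hnRNPK, 1.11, 0.861 and 0.472 in Antisense_NC, and 0.449, 0.411 and 0.543 in Antisense_hnRNPK. It rose in Ctrl_hnRNPK replicates 1 and 2 above the Ctrl_NC libraries and not in replicate 3, the Antisense groups overlapped, and the interaction was -2.24 ± 0.45 (SE) with adjusted p = 0.00634, and -1.76 (adjusted p = 0.293) with all 12. For RP11-84A19.4 the call was kept in each of the 11 fits that left out 1 further library. RP11-429D19.1 (-2.42 ± 0.50 (SE), adjusted p = 0.00724) and RP3-395M20.12 (-1.996 ± 0.41 (SE), adjusted p = 0.00696) were called in 11 of the 11 such fits. With all 12 the values were -2.20 (adjusted p = 0.134) and -1.93 (adjusted p = 0.103). RP11-429D19.1, at 7, 3 and 5 counts in the Antisense_hnRNPK libraries, fell in Antisense, where the NC libraries read 0.577 to 1.29 CPM and those with the construct 0.0948 to 0.262 CPM. The pseudogene RP1-152L7.5 (-1.91 ± 0.47 (SE), adjusted p = 0.0196) was called in 8 of the 11, with adjusted p up to 0.0963. Fewer of these fits called SNORD68, a small nucleolar RNA inside RPL13 (-2.24 ± 0.61 (SE), adjusted p = 0.0315, 2 of 11 fits, up to 0.0991), RP13-638C3.2 (-2.21 ± 0.62 (SE), adjusted p = 0.0354, 1 of 11 fits, up to 0.138), RP11-510N19.5, which overlaps ELF3 (-1.77 ± 0.51 (SE), adjusted p = 0.0401, 3 of 11 fits, up to 0.135), and the protein-coding gene VASH2, a vasohibin (-1.79 ± 0.52 (SE), adjusted p = 0.0416, 3 of 11 fits, up to 0.314). These values rest on few reads. In the Antisense_hnRNPK libraries SNORD68 held 4, 1 and 5 counts, RP13-638C3.2 7, 2 and 13 and RP11-510N19.5 4, 5 and 4, around the 3 counts that a count of 0 allows, and VASH2 held 11, 8 and 17 in Ctrl_NC. With all 12 the values were -1.61 (adjusted p = 0.223) for RP1-152L7.5, -2.29 (adjusted p = 0.134) for SNORD68, -1.92 (adjusted p = 0.233) for RP13-638C3.2, -1.43 (adjusted p = 0.341) for RP11-510N19.5 and -1.63 (adjusted p = 0.204) for VASH2.

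Of 313 listed small nucleolar and Cajal body RNAs, 87 passed the filter in the 11 libraries and 75 with all 12. Together the 313 summed to 38.1 to 193 CPM per library. Of the 87, 2 were called lower, against 0.470% of all genes, and 0 higher. A negative interaction was estimated for 79 of the 87, against 54.4% of all genes tested, and with all 12 libraries for 64 of 75, against 53.6%. The tested members were lower in Antisense than in Ctrl, with median log2 fold changes of -1.31 in NC and -2.38 with hnRNPK. They could therefore pass the filter through the Ctrl libraries, so the counts of signs are not read as a result. The list median of the interaction was -0.76 in the 11 libraries and -0.55 with all 12, and with the GC and length trend removed it was -0.34 and -0.32.

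Other lists held few called genes. Their counts at the adjusted p stand against 2.85% of all genes higher and 3.77% lower. Of 21 NRF2 targets, 1 was called (SLC7A11, also counted among transporters) and 7 passed higher, among them NQO1 (0.60, 0.64) and HMOX1 (0.55, 0.28), and 0 passed lower. Of 29 genes of glycolysis and the hypoxia response, 6 passed lower, ADM among them with SLC2A1 (-0.61, -0.86), the glucose transporter, and ALDOA (-0.52, -0.88), and 1 higher. Of 40 hnRNP and SR splicing factors, HNRNPK included, 8 passed lower, such as HNRNPH1 (-0.73, -0.48) and HNRNPA1 (-0.42, -0.19), and 1 higher. Of 18 genes of fatty acid synthesis and desaturation, 4 passed lower and 0 higher, and of 20 cholesterol synthesis genes 0 passed in either direction with 18 negative values, against 54.4% of all genes, and a median of -0.37 in the 11 libraries and -0.51 with all 12. The cholesterol median ran from -0.60 to -0.11 over the 21 alternative fits of the 11 libraries. These genes summed to 1206 CPM in Antisense_hnRNPK replicate 2, against 2327 and 2340.5 in its replicates 1 and 3. Among 10 genes of the EGF receptor family and its ligands, EGFR (0.85, 0.69) and HBEGF (0.72, 0.64) passed higher, and among 21 ERK feedback and ETS genes DUSP6 (0.79, 0.72), the ERK phosphatase, and ETV5 (0.65, 0.48) passed higher and ETV4 (-0.71, -0.94) and VGF (-0.61, -0.81) lower. Of 24 BMP and SMAD genes, 4 passed lower and 0 higher, of which ID3 was called. The epithelial markers gave 1 of 6 past the adjusted p, CLDN4 (-0.89, -1.11), and COL1A1 (-0.996, -1.13) was the 1 of 2 tested markers of other cells to pass, at 13.0 to 32.3 CPM as group means.

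Protein-coding genes made up unequal shares of the genes called higher and lower, a difference that was not tested. Of the 84 called higher 75 were protein coding (89.3%), of the 74 called lower 43 (58.1%), and of all genes tested 81.1%. The median length of the longest annotated transcript was 3234 bases in the first, 2013 in the second and 3411 in all genes tested, and the median GC content was 51.2%, 53.9% and 48.9%. Their median expression was 7.85, 4.59 and 12.8 CPM in the same order, so the genes called lower were also the least expressed of these sets. The effect of the construct had a Spearman correlation with GC content across genes of -0.673 in Antisense and -0.721 in Ctrl, and the interaction of -0.033. With all 12 libraries these were -0.684, -0.683 and -0.397, so that the relation of the interaction to GC content moved with 1 library. These are descriptions of the 15528 genes, or 15147 with all 12, with a GC value, which share the same libraries.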

How the data were processed

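RNA was extracted from HCT116 cells and sequenced as paired ends after KAPA RNA HyperPrep preparation. The authors trimmed the reads, aligned them with TopHat2 to GRCh38, allowing 4 mismatches, with Gencode version 23, and deposited uniquely mapped reads per gene as whole-number counts without normalization. The counting program and its use of strand are not given in the sources used here. Total counts ran from 19732681 to 27039520. The deposited FPKM table was not used.

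Counts of the 4 groups were fitted in R 4.3.3 with edgeR 4.0.16 (TMM, filterByExpr, robust quasi-likelihood F-test, two-sided), and the interaction was tested with p-values adjusted by Benjamini-Hochberg across every tested gene. A gene was called at an adjusted p of at most 0.05 and a fold change of at least 2 or at most 0.5. The fit was made on all 12 libraries and on the 11 without Ctrl_hnRNPK replicate 3. CPM were scaled by TMM over the 12 libraries, and SE denotes the log2 fold change's standard error, its size divided by the root of F. DESeq2 1.42.0 and limma 3.58.1 were alternatives, and the edgeR fit was tested on simulated data. With all 12 libraries it recovered 71.1% and 77.8% of simulated log2 changes of 1.5 and 2, with 9 false calls. In the 11 libraries it recovered 78.6% and 90.7%, with 0 false calls. No simulated library departed from its group as Ctrl_hnRNPK replicate 3 did, so that case was not tested. Simulated counts were drawn independently for each gene and library. The false calls therefore do not measure how far the real calls depend on single libraries. A count of 0 allows up to 3 counts, for counting error only. The named genes were HNRNPK, LINC01767, the 10 highest and 10 lowest interactions called at an average of 1 CPM or more (all from the 11-library fit, since 0 were called with 12) and up to 6 called members of each of 35 lists. Members that passed the adjusted p alone, printed with a value in parentheses, were named after their values were seen. Coordinates come from Gencode version 44 on GRCh38 and promoters from RefSeq. The genes, lists and tests were chosen with earlier results of these data known.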

Additional observations from a re-analysis of the deposited data

Results flagged for a closer look

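The effect of the construct differed between the Antisense and Ctrl backgrounds, by edgeR's interaction test on 11 libraries, in 158 genes, 84 higher and 74 lower, and in 0 genes with all 12 libraries. The adjusted p of each called gene that the report names was as follows. Amino acid response genes had 0.00548 (CHAC1), 0.00696 (TRIB3), 0.0117 (ATF5), 0.00205 (JDP2), 0.00141 (ASNS), 0.00240 (SLC7A11), 0.00570 (SLC6A9), 0.000280 (SARS), 0.000756 (WARS), 0.00109 (MARS). Heat shock, histone and immediate early genes had 0.00162 (HSPA1B), 0.00141 (HSPB1), 0.000164 (HIST2H2BE), 0.00201 (HIST3H2A), 0.0271 (FOSB), 0.0187 (NR4A1), 0.00101 (FOS). Chemokine and other list members had 0.00582 (CXCL3), 0.0392 (CCL20), 0.00932 (CXCL2), 0.00590 (ID3), 0.00743 (MMP1), 0.0287 (ADM), 0.000847 (MT-RNR1), 0.0315 (SNORD68). Genes outside the lists had 0.0232 (HPS6), 0.00261 (HKDC1), 0.00937 (DHRS2), 0.0412 (PARS2), 0.0147 (LOXL3), 0.0130 (EPM2A), 0.0261 (BHLHA15), 0.0224 (KCNG1), 0.00724 (RP11-429D19.1), 0.00634 (RP11-84A19.4), 0.0354 (RP13-638C3.2), 0.00696 (RP3-395M20.12), 0.0196 (RP1-152L7.5), 0.0416 (VASH2), 0.0401 (RP11-510N19.5). No group had more than 3 libraries, so single libraries were not tested as outliers.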

How the results depend on the processing

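With all 12 libraries 0 genes were called by edgeR as described, with RLE size factors and without robust moderation. Calls appeared without the filter on low counts (201, 58 higher and 143 lower), with DESeq2 (125, 44 and 81), with limma-voom and sample quality weights (236, 104 and 132), in one fit of all 6 groups (2, 1 and 1), with the replicate block (2, both higher), with the GC and length trend removed (58, 27 and 31) and with the replicate block and that correction together (79, 34 and 45). Leaving out 1 library gave 0 to 158 calls, 0 to 84 higher and 0 to 74 lower, and the non-zero counts were 33 without Antisense_hnRNPK replicate 3, 63 without Ctrl_hnRNPK replicate 2 and 158 without Ctrl_hnRNPK replicate 3. Without replicate 3 of both hnRNPK groups there were 382 (219 and 163). A fit of all 6 groups without replicate 3 of Ctrl_hnRNPK and CRLM1_hnRNPK, added after the data were seen, gave 191 (98 and 93).

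For the 158 calls of the 11 libraries (84 higher, 74 lower), one fit of all 6 groups gave 13 (8 and 5), omitting the low-count filter gave 135 higher, and the weights gave 119 lower against 76 higher. The adjusted p with no limit on fold change gave 1042 (449 and 593). Leaving out 1 further library gave 84 to 382, 39 to 219 higher and 42 to 163 lower. DESeq2 called 159 of which 137 were among the 158, and RLE factors 152 of which 148 were. The replicate block gave 207 calls, 209 with the GC and length trend also removed, 150 and 146 of them among the 158. Same-numbered libraries deviated together in 2 of 18 pairs (r over 0.1, range -0.086 to 0.145), so the numbers were not taken to pair the samples. Under each of these settings every one of the 158 genes that was tested kept the sign of its interaction.

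With all 12 libraries the interaction of HNRNPK was negative with the weights (-0.0915), with the GC and length trend removed (-0.15, also with the replicate block), without Antisense_hnRNPK replicate 3 (-0.0056), without Ctrl_NC replicate 3 (-0.000448), without Ctrl_hnRNPK replicate 3 (-0.11), in the added fit (-0.0945) and without replicate 3 of both hnRNPK groups (-0.13), and without 1 library it ran from -0.108 to 0.114. Causes were not tested. Each arm holds 3 libraries or fewer, which limits the precision of low counts such as those of CHAC1, HPS6 and PARS2.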
